A study of Penicillium oxalicum with 15 samples.

Results

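The strain gClrBID of the filamentous fungus Penicillium oxalicum was compared with the strain M12 after transfer to cellulose, with 3 libraries per strain. Genes were included if they reached 1 FPKM (fragments scaled by the length of the gene and the total counted in the library) in at least 3 of the 15 libraries of the series. This rule kept 8765 of 9976 identifiers. Of the 1211 left out, 187 had no fragment in any library and 220 reached 1 FPKM in 1 or 2 libraries. Among the genes kept, 29 met the rule only through the gClrBID cellulose libraries and 7 only through the M12 cellulose libraries, so these could enter only by being high there.

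In the labels gClrBID is a strain with overexpression of a ClrB internal mutant, ClrB being a transcription factor, and M12 is the reference strain. The labels state neither the promoter, the copy number nor the number of clones behind gClrBID. Mycelia of both strains came from a 22 h preculture in Vogel's medium on 2% glucose and spent 4 h on 2% (w/v) cellulose at 30 °C and 200 rpm. Groups of 3 libraries from gClrBID on glucose, M12 on glucose and a creA deletion strain on cellulose served for looking up levels. The replicates are called biological triplicates with no account of the cultures, so a p-value reflects only how far these libraries vary.

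Cellulose is broken down outside the hyphae by secreted enzymes that act together. Cellobiohydrolases release cellobiose from chain ends, endoglucanases cut inside the chains, lytic polysaccharide monooxygenases open crystalline regions by oxidation, and beta-glucosidases split cellobiose to glucose. ClrB is an activator of these genes in P. oxalicum, and CreA, the regulator of carbon catabolite repression, holds them down while glucose is at hand.

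The gClrBID libraries held 13482303 to 15267427 fragments and the M12 libraries 13621130 to 15930698. Squared differences between replicates, relative to counting error, averaged 6.20 to 23.2 in gClrBID and 3.72 to 5.46 in M12, with the 2 highest gClrBID values (11.8 and 23.2) in the pairs that include replicate 1. The gene behind the construct was lower in gClrBID on cellulose. clrB had 56.0, 76.2 and 88.8 FPKM in gClrBID, against 160, 148 and 150 FPKM in M12, so that every gClrBID library was below every M12 library. The log2 fold change was -1.06 ± 0.11 (SE, adjusted p = 6.63e-07). In gClrBID on glucose clrB stood at 469 ± 16.4 FPKM (SD, n = 3), and the table does not separate transcripts of the native gene from those of the construct.

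Over all tested genes the strains differed widely and mostly by small steps. Called below means an adjusted p under 0.05 in limma's test over all genes on log2(FPKM + 1). Of the 8765 genes 2394 were called higher in gClrBID (27.3%) and 2816 lower (32.1%), together 59.4%. Median-of-ratios scaling turned this balance to 2863 higher and 2425 lower. The log2 fold change had a median of -0.02, quartiles of -0.32 and 0.24, and 5th and 95th percentiles of -1.08 and 0.88, with a median SE of 0.083. Of the 5210 called genes 3297 differed by less than 1.5-fold.

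Larger differences were counted at a minimum of 2-fold. There 371 genes were higher (4.23%) and 501 lower (5.72%) in gClrBID. Higher genes led at the larger sizes, with 136 higher and 80 lower at 4-fold, 47 and 20 at 8-fold, 18 and 6 at 16-fold, and 6 and 3 at 32-fold. The replicates of the 2 strains did not overlap in 370 of the 371 and 498 of the 501 genes, where 65.4% of all tested genes showed no overlap. The genes were chosen on these same libraries, which largely fixes this, so it adds no support. Just past the threshold, with log2 sizes from 1 to 1.1, lay 40 higher and 76 lower genes, and just short of it, from 0.9 to 1, lay 58 and 113 called genes. Sorted into quartiles by mean level, 45.8% of the lowest quartile and 71.7% of the highest were called, with median SEs of 0.152 and 0.0629. The lowest quartile held 538 higher and 465 lower genes, and the highest 588 higher and 982 lower.

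**Figure D1:**
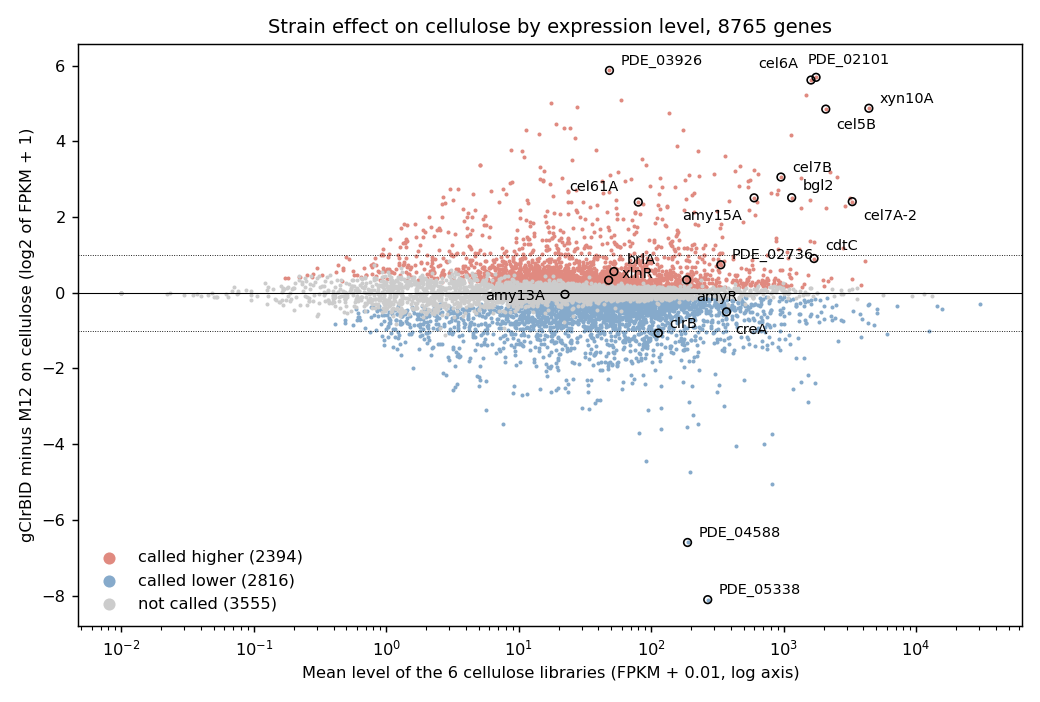
Strain effect on cellulose (gClrBID minus M12, log2 of FPKM + 1) against the mean level of the 6 cellulose libraries (FPKM + 0.01, log axis) for 8765 genes, with the called genes coloured and the named genes ringed. The cellulase and xylanase genes sit at the upper right, PDE_05338 and PDE_04588 lie far below the other genes, and the dotted lines mark a 2-fold difference.

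Names could be given to only a few genes. The deposited table holds locus tags without names, and 0 of the 9976 tags matched the RefSeq table of strain HP7-1 (assembly ASM172317v3). 15 tags are named here from knowledge of strain 114-2, and PDE_02736 is given by tag. Of these 16 genes 13 were called higher, 2 lower and 1 neither, where 27.3% and 32.1% of all genes were called. Their median log2 fold change was 1.65, against -0.02 over all tested genes. The 16 were chosen with earlier results of these data known, so these counts and medians are a description only.

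The 5 cellulase genes were all higher in gClrBID, by 5.30-fold to 52.2-fold in the mean FPKM, and their median log2 fold change was 3.06. cel6A (PDE_07124), for a cellobiohydrolase, had 3491, 3512 and 3331 FPKM in gClrBID, against 66.5, 58.4 and 73.3 FPKM in M12. The replicates within each strain were close and the strains far apart, with a log2 fold change of 5.69 ± 0.08 (SE, adjusted p = 7.37e-17). Ranked by level, cel6A was the 28th of the tested genes in gClrBID and the 2399th in M12. cel7A-2 (PDE_07945), for the other cellobiohydrolase, had 5586, 5691 and 5346 FPKM in gClrBID, against 997, 1031 and 1109 FPKM in M12. It was already abundant in M12, where it was the 132nd gene by level, and it was the 10th in gClrBID. Its log2 fold change was 2.41 ± 0.08 (adjusted p = 1.34e-12).

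The mean FPKM of cel6A was below that of cel7A-2 in both strains, but by unequal ratios, with cel6A and cel7A-2 at 3445 ± 98.9 and 5541 ± 177 FPKM in gClrBID and at 66.0 ± 7.45 and 1046 ± 57.5 FPKM in M12 (SD, n = 3 each). The endoglucanase genes changed places. cel5B (PDE_09226) had 3937, 4098 and 4018 FPKM in gClrBID, against 134, 136 and 145 FPKM in M12, a log2 fold change of 4.85 ± 0.13 (adjusted p = 5.28e-14). cel7B (PDE_07929) had 1788, 1692 and 1628 FPKM in gClrBID, against 199, 205 and 208 FPKM in M12, a log2 fold change of 3.06 ± 0.06 (adjusted p = 2.05e-15). cel5B was the higher of these 2 genes in gClrBID, and cel7B in M12.

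cel61A (PDE_05633), for a lytic polysaccharide monooxygenase, was the lowest of the cellulase genes in both strains. It had 170, 122 and 114 FPKM in gClrBID, against 24.5, 24.1 and 25.0 FPKM in M12. All gClrBID libraries were above all M12 libraries, although replicate 1 of gClrBID stood well above the other two. The log2 fold change was 2.39 ± 0.13 (adjusted p = 2.39e-10). In the creA deletion strain, also on cellulose, cel61A stood at 4074 ± 288 FPKM (SD, n = 3).

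**Figure D2:**
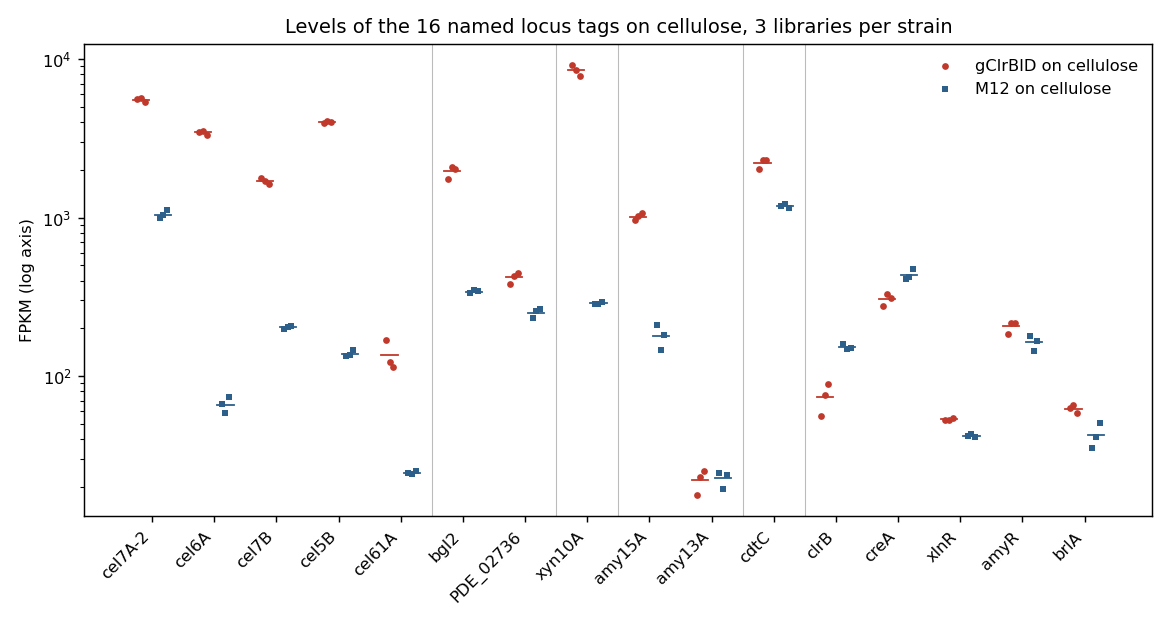
FPKM (log axis) of the 16 locus tags in the 3 gClrBID libraries (red circles, left of each pair) and the 3 M12 libraries (blue squares) on cellulose, with a bar at each group's mean and grey lines between enzyme classes, transporter and regulators. The strains do not overlap for any gene except amy13A, where 65.4% of all tested genes show no overlap. The 16 were chosen with earlier results of these data known. clrB and creA are the genes that are lower in gClrBID.

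Further along the pathway the beta-glucosidase genes were called higher as well, by unequal amounts. bgl2 (PDE_00579) had 1764, 2082 and 2022 FPKM in gClrBID, against 333, 350 and 342 FPKM in M12, a log2 fold change of 2.51 ± 0.06 (adjusted p = 1.45e-14). PDE_02736, counted as a beta-glucosidase gene from the same knowledge of the species, had 379, 431 and 449 FPKM in gClrBID, against 231, 257 and 264 FPKM in M12. The groups did not overlap, but the difference was 1.67-fold, a log2 fold change of 0.74 ± 0.09 (adjusted p = 6.15e-06). The cellodextrin transporter gene cdtC (PDE_00607), whose product takes up short glucose chains, likewise differed by less than 2-fold. It had 2040, 2293 and 2294 FPKM in gClrBID, against 1181, 1211 and 1145 FPKM in M12, with a log2 fold change of 0.90 ± 0.07 (adjusted p = 2.00e-08).

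The xylanase gene xyn10A (PDE_08094), for an enzyme that cuts the hemicellulose xylan, was the most abundant of the named genes in gClrBID. It had 9123, 8503 and 7872 FPKM in gClrBID, against 287, 287 and 293 FPKM in M12, a 29.4-fold difference with a log2 fold change of 4.87 ± 0.09 (adjusted p = 2.05e-15). By level it was the 7th gene in gClrBID and the 571st in M12, and it held 1.05 ± 0.0771% of all fragments in gClrBID against 0.0356 ± 0.000434% in M12 (SD, n = 3 each). xlnR (PDE_07674), which encodes an activator of xylanase genes, moved little. It had 52.6, 52.9 and 54.4 FPKM in gClrBID, against 41.9, 43.2 and 41.4 FPKM in M12, and the log2 fold change was 0.33 ± 0.05 (adjusted p = 2.42e-05).

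The starch-degrading enzymes were divided. amy15A (PDE_09417), for a glucoamylase, had 961, 1021 and 1066 FPKM in gClrBID, against 211, 147 and 182 FPKM in M12, a log2 fold change of 2.51 ± 0.12 (adjusted p = 1.11e-10). amy13A (PDE_01201), for an alpha-amylase, had 17.8, 23.0 and 25.4 FPKM in gClrBID, against 24.6, 19.3 and 23.9 FPKM in M12. The strains overlapped, and the log2 fold change of -0.04 ± 0.15 was not called (adjusted p = 0.828). Its sign turned with median-of-ratios scaling (0.01). amyR (PDE_03964), for the activator of amylase genes, had 185, 218 and 218 FPKM in gClrBID, against 180, 144 and 167 FPKM in M12. The lowest gClrBID library lay just above the highest M12 library, with a log2 fold change of 0.34 ± 0.10 (adjusted p = 0.0108). This call was lost without replicate 2 of M12 on cellulose (0.25, adjusted p = 0.0646, and 0.000196 to 0.0646 over all alternatives).

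Among the other regulators, creA (PDE_03168) was lower in gClrBID. It had 277, 329 and 311 FPKM in gClrBID, against 407, 423 and 472 FPKM in M12, and the log2 fold change was -0.50 ± 0.07 (adjusted p = 9.27e-06). brlA (PDE_00087), a regulator of the formation of conidia, had 62.8, 65.5 and 58.5 FPKM in gClrBID, against 35.3, 41.4 and 50.2 FPKM in M12. The groups did not overlap, and the log2 fold change was 0.56 ± 0.15 (adjusted p = 0.00494). brlA stands here for spore-forming cells, and the part of such cells in the other differences was not tested. In bulk mycelium fewer cells of a type and less RNA per cell cannot be told apart. Of the 5 regulator genes 3 were higher and 2 lower, where 27.3% and 32.1% of all genes were called, and none of the 3 higher ones reached 2-fold. The call of amyR, among the 3, was lost without M12 replicate 2 (0.25, adjusted p = 0.0646).

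The enzyme genes also took a larger share of the library. The 5 cellulase genes held 2.16, 2.18 and 2.08% of all fragments in gClrBID, against 0.220, 0.225 and 0.242% in M12. The 10 enzyme genes (cellulases, beta-glucosidases, xylanase and amylolytic enzymes) held 3.78 ± 0.0957% in gClrBID and 0.417 ± 0.0151% in M12 (SD, n = 3 each). By summed FPKM, which divides by length, the shares were lower: 1.53% in gClrBID and 0.146% in M12 for the cellulase genes, and 2.76% and 0.253% for the 10 enzyme genes. Neither share of fragments overlapped between strains, and the 2-sided exact permutation test gave p = 0.1 for each, the smallest that 3 against 3 libraries allow. Both lists were chosen with earlier results of these data known, so the test adds no support and the shares are a description. The 371 genes at least 2-fold higher held 16.9 ± 0.992% in gClrBID and 3.30 ± 0.0447% in M12, and the 501 lower genes 4.28 ± 0.121% and 12.5 ± 0.00575%, as their choice fixes. Fewer genes made up 50% of the fragments in gClrBID, 445 to 447, against 509 to 511 in M12. The 10 most abundant genes of each library held 8.51 to 8.83% in gClrBID and 8.41 to 8.55% in M12, and the 100 most abundant 29.1 to 29.9% and 26.9 to 27.1%.

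Of the genes without a name, the 2 with the highest and the 2 with the lowest fold changes are given. PDE_03926, with a coding length of 9624 bases, had 69.6, 113 and 106 FPKM in gClrBID, against 0.603, 0.649 and 0.626 FPKM in M12. The M12 values rested on 79 to 96 fragments per library, and the means differed 153.7-fold. The log2 fold change was 5.87 ± 0.14 (SE, adjusted p = 1.82e-14), and between 4.14 (pseudocount of 5 FPKM) and 7.22 (voom weights) over the alternatives. PDE_02101 had 3631, 3082 and 2740 FPKM in gClrBID, against 59.6, 65.7 and 63.2 FPKM in M12, a log2 fold change of 5.62 ± 0.08 (adjusted p = 7.37e-17). This put it at the level of the cellulase genes, as the 33rd gene in gClrBID and the 2494th in M12.

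The deepest losses were near-complete. PDE_05338, a short gene with a coding length of 279 bases, had 0.235, 1.28 and 1.60 FPKM in gClrBID, from 1, 5 and 6 fragments, against 545, 540 and 514 FPKM in M12. It was the 325th gene by level in M12 and the 8336th in gClrBID, and the mean was 514.9-fold higher in M12. The log2 fold change of -8.10 ± 0.19 (adjusted p = 1.45e-14) ranged from -9.18 to -6.49 over the alternatives. PDE_04588 had 2.67, 3.03 and 2.88 FPKM in gClrBID, against 402, 382 and 336 FPKM in M12, a log2 fold change of -6.60 ± 0.18 (adjusted p = 8.38e-14). On glucose neither gene was abundant in either strain: PDE_05338 averaged 3.58 ± 0.623 FPKM in gClrBID and 8.62 ± 0.353 in M12, and PDE_04588 2.56 ± 0.254 and 2.31 ± 0.404 (SD, n = 3 each).

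The locus tags are numbered, and genes at least 2-fold higher were often consecutive in number. Positions in the genome are not in the table, so only the order of the tags is described, and the runs below were singled out after their values were seen. Runs of 3 or more consecutive tags called at least 2-fold in 1 direction held 73 of the 371 higher genes (19.7%) in 15 runs and 53 of the 501 lower genes (10.6%) in 16 runs. 6 of the higher and 1 of the lower runs had 5 tags or more, and the longest had 13 and 6. With a pseudocount of 5 FPKM, a setting added after seeing the data, 39 genes stood in 9 higher runs and 17 in 5 lower runs.

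The longest run lay 3 to 15 tags after cel5B. cel5B itself was not part of it, since the next 2 tags had log2 fold changes of -0.01 ± 0.06 and 0.08 ± 0.16 and were not called. Past the run, the tags 16, 17 and 18 after cel5B were called higher too (0.63 ± 0.11, 2.27 ± 0.20 and 1.61 ± 0.11). They averaged 52.3, 11.2 and 37.6 FPKM in M12 on cellulose. Summed over the 13 tags, the level was 136, 227 and 311 FPKM in gClrBID, against 17.2, 18.6 and 20.0 FPKM in M12. The sums did not overlap, as the choice of these tags largely fixes, and the sums differed within gClrBID by more than 2-fold. 3 of the 13 tags had no fragment in any M12 library on cellulose. Of these, the tag 10 after cel5B had 124, 276 and 370 fragments in gClrBID against 0, 0 and 0 in M12, at least 90.2-fold higher when set against 3 fragments per M12 library. All 13 had been kept by the rule on low values, 11 of them only through the gClrBID cellulose libraries, so their being higher was fixed by that rule for those 11.

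**Figure D3:**
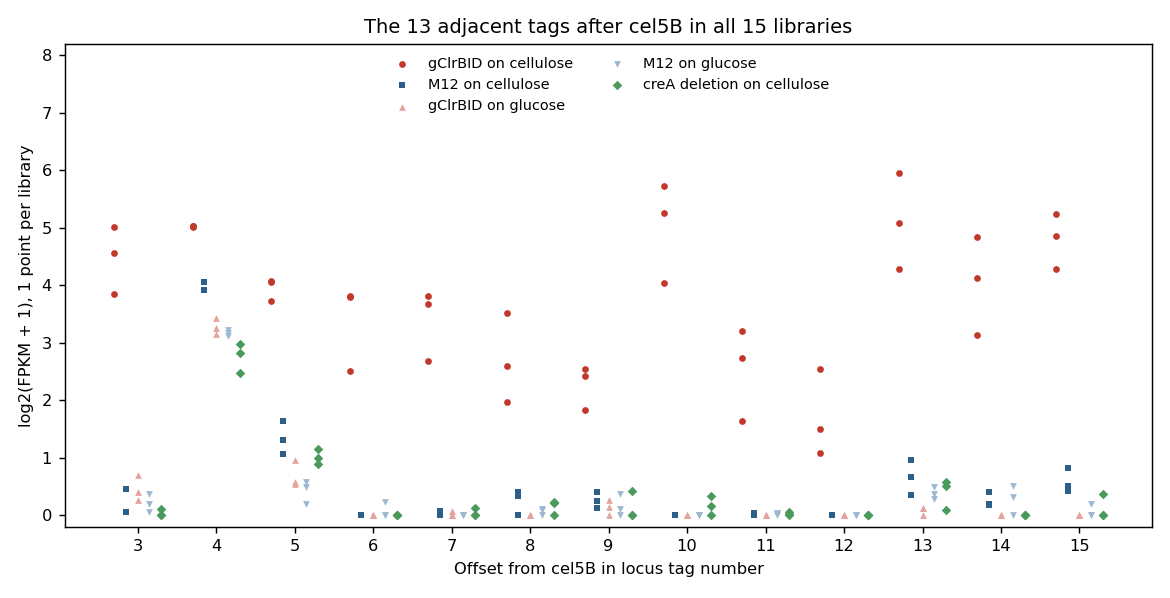
log2(FPKM + 1) of the 13 consecutive tags 3 to 15 after cel5B in all 15 libraries, 1 point per library, with the groups drawn side by side at each tag. The gClrBID cellulose libraries (red circles) are above the libraries of the other 4 groups at every tag, and those groups lie near 0 except at tag 4 and, less so, tag 5. For the 11 tags kept only through the gClrBID cellulose libraries, this order was fixed by the rule on low values.

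In the other groups the same 13 tags were low: their sum averaged 9.93 ± 0.688 FPKM in gClrBID on glucose, 7.73 ± 0.503 in the creA deletion on cellulose and 9.33 ± 0.302 in M12 on glucose (SD, n = 3 each). None of the 13 was called between the strains on glucose, where 17% of all genes were called higher and 54.7% lower. However, 11 of the 13 reached 1 FPKM only in the gClrBID cellulose libraries. Their low levels elsewhere and their lack of calls on glucose largely follow from that and are no separate result. Replicate 1 of gClrBID was the lowest of its group for 13 of the 13 tags and replicate 3 the highest for 12.

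A pair of runs lay on either side of amy13A, which itself was not called. The 6 tags from 10 to 5 before it summed to 219, 300 and 355 FPKM in gClrBID, against 23.6, 25.7 and 27.5 FPKM in M12, with a median log2 fold change of 2.95. The 9 tags from 11 to 19 after it were abundant, and summed to 7636, 9243 and 10166 FPKM in gClrBID, against 1483, 1479 and 1606 FPKM in M12, with a median of 2.47. Neither sum overlapped between strains, as the choice of these tags largely fixes. In the creA deletion on cellulose the sums averaged 14.1 ± 1.78 and 234 ± 10.3 FPKM, below both strains. Between these runs, tags were called in both directions. The tags 6 and 7 after amy13A were lower in gClrBID (-2.27 ± 0.10 and -2.83 ± 0.10), as were, by less, the tags 5 and 10 after it (-0.55 ± 0.09 and -0.97 ± 0.07). The tags 3 and 2 before amy13A were higher (1.56 ± 0.05 and 0.75 ± 0.08). Ahead of the first run, the tags 13 and 12 before amy13A were higher as well (4.36 ± 0.20 and 3.75 ± 0.24).

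PDE_03926 opened a run of 5 tags, whose other members were higher by log2 fold changes of 2.94 to 5.09. The run summed to 544, 652 and 643 FPKM in gClrBID, against 24.2, 19.8 and 19.4 FPKM in M12. The tag before the run was called lower in gClrBID (-0.79 ± 0.08) and the tag after it was higher by less than 2-fold (0.62 ± 0.08). All 5 were called higher on glucose too, where the sum averaged 693 ± 20.4 FPKM in gClrBID and 1.98 ± 0.409 in M12 (SD, n = 3 each).

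**Figure D4:**
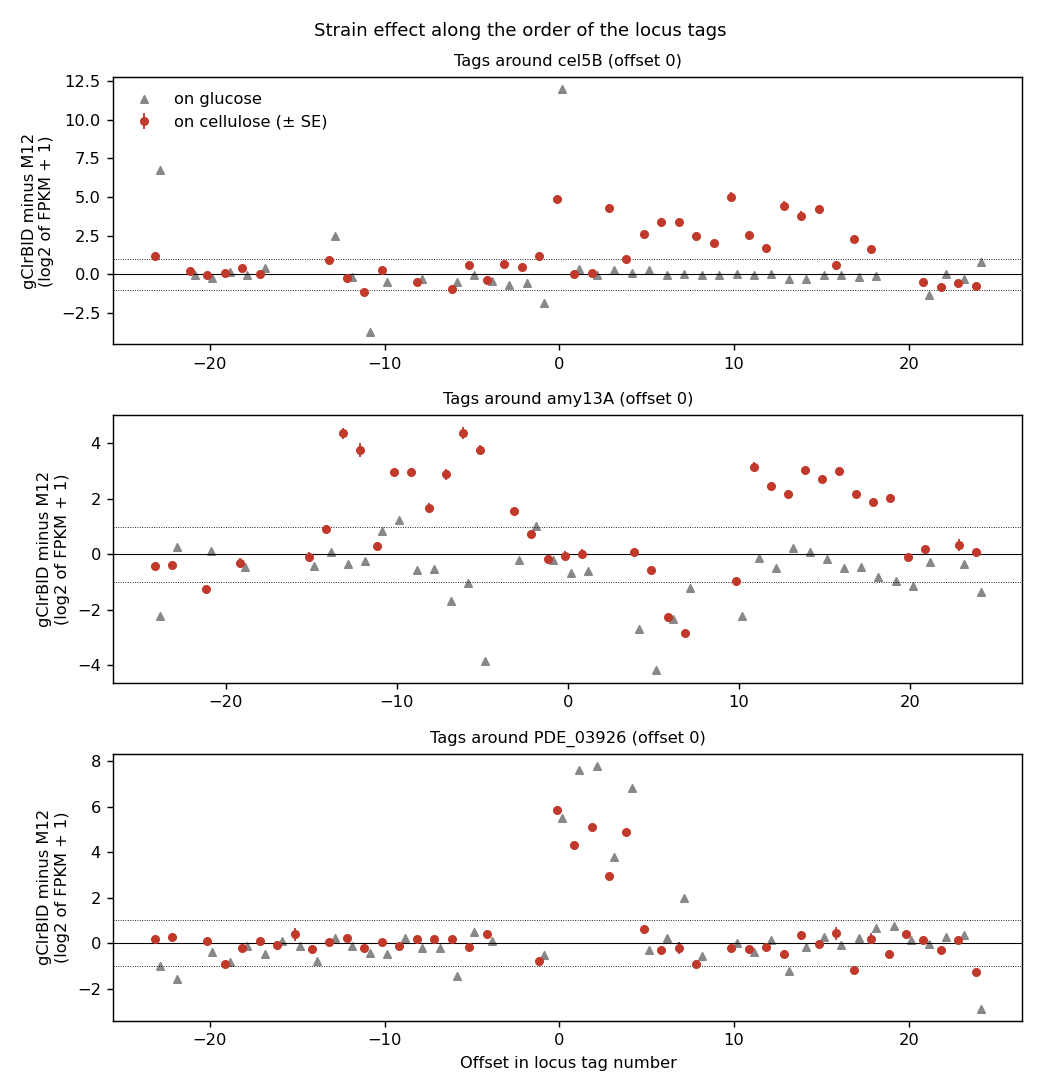
Strain effect (gClrBID minus M12, log2 of FPKM + 1) on cellulose (red circles, with SE) and on glucose (grey triangles) for tested tags within 24 tags of cel5B, amy13A and PDE_03926, each at offset 0. Red points stand high in unbroken runs after cel5B, on both sides of amy13A and from PDE_03926 on, and in the last of these runs the grey points stand high at all 5 tags as well.

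Some tags next to or near other named genes differed as well. The tag after PDE_02101 stood at 2868 FPKM in gClrBID and 75.3 FPKM in M12 (means, n = 3 each), a log2 fold change of 5.23 ± 0.11. The 2 tags after PDE_05338 were lower in gClrBID with it, by -2.55 ± 0.09 and -1.85 ± 0.09. The tag before cel7B was higher by 2.61 ± 0.05 and the tag 9 after it by 3.58 ± 0.15, while cel7A-2 is the tag 16 after it. The longest lower run, of 6 tags, summed to 115, 112 and 88.3 FPKM in gClrBID, against 760, 614 and 705 FPKM in M12. On glucose the order was the opposite, with sums of 134 ± 11.5 FPKM in gClrBID and 15.2 ± 1.54 FPKM in M12 (SD, n = 3 each). In the creA deletion on cellulose the same run averaged 2417 ± 159 FPKM (SD, n = 3). A single tag held 2018 FPKM of this sum. The median tag stood at 62.2 FPKM in the creA deletion, below the 78.6 FPKM in M12 on cellulose.

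A small number of genes were near absent in 1 strain. 6 genes had 30 or more fragments in each gClrBID library and 3 or fewer in each M12 library on cellulose, and 4 of the 6 belonged to the run after cel5B. The rule on low values kept 5 of the 6 only through the gClrBID cellulose libraries, so their being tested at all depended on their being high there. A further gene had 1, 2 and 2 fragments in gClrBID and 52, 64 and 68 in M12. At this depth 3 fragments or fewer do not separate a silent gene from a weakly transcribed one.

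The higher genes shared an order among the gClrBID libraries. Replicate 1 was the lowest of the 3 for 243 of the 371 genes (65.5%), against 39.5% of all tested genes, and replicate 3 was the highest for 217 (58.5%), against 39.9%. For the 501 lower genes the shares were 31.9% and 35.9%. Of the cellulase genes cel5B had its lowest value in replicate 1, whereas replicate 1 was above replicate 3 for cel7A-2, cel6A, cel7B and cel61A. Without replicate 1 of gClrBID, 390 genes were at least 2-fold higher and 515 lower, and 17 runs were higher with the longest again of 13 tags.

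The glucose libraries of the 2 strains share no library with the cellulose comparison, so the same genes were looked up there. Of all tested genes 17% were called higher and 54.7% lower in gClrBID on glucose, with a median log2 fold change of -0.26 that median-of-ratios scaling moved to 0.00. Of the 371 genes at least 2-fold higher on cellulose, 134 (36.1%) were called higher and 129 (34.8%) lower on glucose, and 62 stayed under 1 FPKM in all 6 glucose libraries. At a minimum of 2-fold, 98 (26.4%) were higher and 71 (19.1%) lower, against 4.89% and 15.3% of all tested genes. The higher genes thus divided on glucose. cel6A, cel5B, cel7A-2, bgl2 and xyn10A were among those also higher, and amy15A was called lower on glucose with a log2 fold change of -0.58 ± 0.12, at 1.76 ± 0.177 FPKM in gClrBID and 3.13 ± 0.253 in M12 (SD, n = 3 each). At these levels the call of amy15A did not hold with voom weights (adjusted p = 0.0885).

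Whether the strain effect differed between the carbon sources was tested per gene, subtracting the glucose effect from the cellulose effect. The test called 48% of all genes with a positive and 20.1% with a negative difference (4208 and 1764 genes). Median-of-ratios scaling moved these to 2919 and 2614 genes. Of the 16 tags 6 had a positive difference, 9 a negative one, and xlnR none that was called. brlA, among the 6, was lost under 13 of 22 alternatives. cel61A, also among the 6, turned negative with voom weights (-0.88) and was lost with a pseudocount of 0.1 FPKM (adjusted p = 0.6945). amy13A, among them too, was lost with a pseudocount of 5 FPKM (adjusted p = 0.369). xlnR was called with median-of-ratios scaling (-0.28, adjusted p = 0.0014). amyR and cdtC mark the range, with log2 fold changes of 0.34 ± 0.10 on cellulose and -3.26 ± 0.10 on glucose for amyR, and 0.90 ± 0.07 and 9.89 ± 0.07 for cdtC.

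Of the 501 lower genes 340 (67.9%) were called lower and 64 (12.8%) higher on glucose, against 54.7% and 17% of all tested genes. At a minimum of 2-fold 217 (43.3%) were lower and 27 (5.39%) higher, against 15.3% and 4.89%. Among the 20 genes at least 8-fold lower on cellulose 16 (80%) were called lower and 1 (5%) higher on glucose, and among the 47 at least 8-fold higher 22 (46.8%) were called higher and 11 (23.4%) lower, beside the same 17% higher and 54.7% lower of all tested genes. With median-of-ratios scaling, 34% of all genes were called higher and 33.3% lower on glucose. Of the 371, 156 (42%) were then higher and 103 (27.8%) lower, and of the 501, 98 (19.6%) were higher and 308 (61.5%) lower. Across all tested genes the strain effects on cellulose and on glucose had a Pearson correlation of 0.313, given as a description, since the genes come from the same 12 libraries and are not independent.

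**Figure D5:**
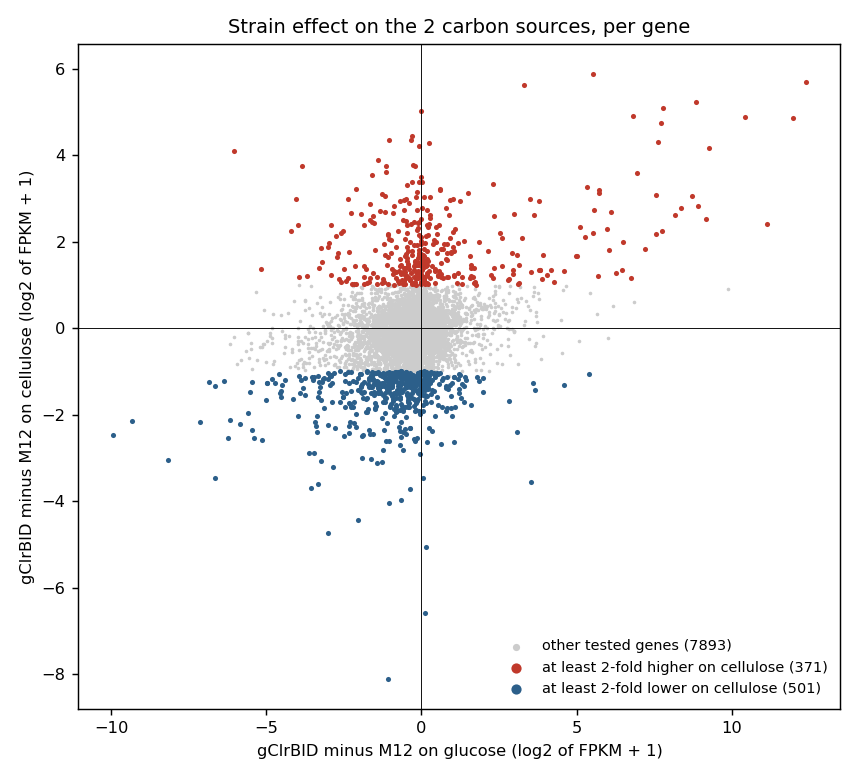
Strain effect (gClrBID minus M12, log2 of FPKM + 1) on cellulose against that on glucose for 8765 genes, with genes at least 2-fold higher (red) and lower (blue) on cellulose. Red points spread to both sides of 0 on the glucose axis and reach far to the right, whereas most blue points lie left of 0.

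Levels over all 5 groups were looked up for the genes that differ on cellulose, as a description. The highest group mean of the 371 higher genes was in gClrBID on cellulose for 211, in gClrBID on glucose for 68, in the creA deletion for 66 and in M12 on glucose for 26. Their median level was 45.9 FPKM in gClrBID on cellulose, 5.99 in gClrBID on glucose, 13.7 in the creA deletion, 12.6 in M12 on cellulose and 4.39 in M12 on glucose. The highest mean of the 501 lower genes was in M12 on cellulose for 357, and the lowest in gClrBID on glucose for 300. Of all 8765 tested genes the highest mean was in M12 on glucose for 2947 and in M12 on cellulose for 2355. It was in gClrBID on cellulose for 1301, in gClrBID on glucose for 1281 and in the creA deletion for 881. The lowest mean was in gClrBID on glucose for 3227 of all tested genes, more than in any other group. The choice of these genes fixes part of this order. M12 on cellulose cannot be the highest for a higher gene or the lowest for a lower gene. Nor can gClrBID on cellulose be the lowest for a higher gene or the highest for a lower gene. The counts of 211 and 357 are raised by the same choice and are no separate result.

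The enzyme genes took different places in this order. cel6A averaged 12569 ± 660 FPKM in gClrBID on glucose and 15004 ± 713 in the creA deletion on cellulose, so that both stood above the 3445 ± 98.9 FPKM of gClrBID on cellulose. xyn10A averaged 8499 ± 626 FPKM in gClrBID on cellulose, close to the 9375 ± 433 of the creA deletion on cellulose and above the 3870 ± 78.2 of gClrBID on glucose. amy15A was highest in gClrBID on cellulose, at 1016 ± 52.3 FPKM, against 352 ± 64.3 in the creA deletion. PDE_02736 was also highest there, at 420 ± 36.5 FPKM, against 204 ± 21.8 in the creA deletion and 251 ± 17.0 in M12 on cellulose (SD, n = 3 each). These levels are given side by side only, because the creA deletion was set against the same M12 cellulose libraries.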

How the data were processed

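RNA of mycelia was measured in 15 stranded mRNA libraries. The authors deposited 1 table of FPKM values for 9976 locus tags, whose columns carry the sample titles. The submitters' processing notes list HISAT2 2.0.0, featureCounts 1.5.0-p1, CASAVA 1.8 and DESeq2, without roles. Build, annotation and strandedness of the counting are not given in the sources used here, so reads shared by overlapping or near-identical genes could not be assessed.

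Fragments per library were worked back from the deposited FPKM, because each value is a whole number of fragments times a constant of gene and library: all 9789 genes above 0 came out whole at a tolerance of 5e-05 FPKM, with totals between 10129674 and 18361208. Lengths were searched among multiples of 3 and are read as coding length.

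Strain effects on cellulose and glucose, and their difference, were fitted with limma 3.58.1 (R 4.3.3) to log2(FPKM + 1), with 1 mean per group over all 15 libraries, an intensity trend and Benjamini-Hochberg adjustment over 8765 genes. Adjusted p-values are from this model or, where named, from an alternative. The pseudocount of 1 makes the fold changes of low genes too small. The procedure was tested on simulated libraries, with the same added spread for every gene and few changed genes between the cellulose groups. The real libraries differ from this setting, so the test does not show how accurate the calls are here. The number of fragments limits the precision of low genes, and counting error is the only error that a count of fragments covers.

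Named genes are 16 tags from prior knowledge of the species and, among genes without a name, the 2 highest and 2 lowest fold changes that were called, averaged at least 10 FPKM in 1 strain and did not overlap. Other tags are given by their distance from these. The members and lists were chosen with earlier results of these data known. Alternatives changed the pseudocount, the filter, the scaling, the weights, the libraries fitted and the replicate block, and left out each library. Same-numbered replicates of the strains did not deviate together on cellulose (correlations of -0.0968 to -0.00636), so the numbers were not taken as pairs.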

Additional observations from a re-analysis of the deposited data

Results flagged for a closer look

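For 18 of the 20 named genes the strain effect differed between the carbon sources, by limma's test of the difference (the effect of gClrBID against M12 on cellulose minus that on glucose, log2, adjusted p under 0.05). Over all tested genes 68.1% passed this test, 48% with a positive difference (4208 genes) and 20.1% with a negative one (1764). With median-of-ratios scaling these were 2919 and 2614 genes. Changes of M12 between the carbon sources enter this quantity, because it equals the difference of the strains' responses to cellulose.

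The difference was negative for genes that were higher in gClrBID on both carbon sources, by a larger ratio to M12 on glucose: xyn10A -5.56, cel7B -5.68, bgl2 -6.66, cel6A -6.70, cel5B -7.13, cel7A-2 -8.74 and cdtC -8.98. In M12 on glucose these genes averaged only 1.33 (cel5B) to 15.6 FPKM (bgl2). For xyn10A the gClrBID mean was higher on cellulose (8499 FPKM) than on glucose (3870 FPKM), where M12 had 289 and 1.83 FPKM. It was also negative for clrB (-6.48) and creA (-2.10), which were higher in gClrBID on glucose and lower on cellulose. Among the tags without a name it was -7.02 for PDE_05338, called lower on both carbon sources, and -6.70 for PDE_04588, not called on glucose.

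The difference was positive for amyR (3.60), amy15A (3.09) and PDE_02736 (2.10), which were called lower in gClrBID on glucose and higher on cellulose. It was 2.30 for PDE_02101 and 1.84 for cel61A, both called higher on both, with cel61A at 2 to 7 fragments per gClrBID library on glucose. Weighting the fragments by voom made the difference of cel61A negative (-0.88, adjusted p = 0.57), and it was lost with a pseudocount of 0.1 FPKM (adjusted p = 0.694), and its call on glucose was lost with a pseudocount of 5 FPKM (0.13, adjusted p = 0.248). For amy13A it was 0.64, with a lower level in gClrBID on glucose and no call on cellulose. With a pseudocount of 5 FPKM both this difference (0.15, adjusted p = 0.369) and the call on glucose (-0.19, adjusted p = 0.12) were lost. For brlA it was 0.51 with no call on glucose, and the difference was lost under 13 of 22 alternatives. The interaction test did not call xlnR (-0.05) or PDE_03926 (0.35). It called xlnR with median-of-ratios scaling (-0.28, adjusted p = 0.0014), and PDE_03926 with a pseudocount of 0.1 FPKM (0.54, adjusted p = 0.041), with array weights (0.55, adjusted p = 0.00537) and without gClrBID cellulose replicate 1 (0.57, adjusted p = 0.0017).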

How the results depend on the processing

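On cellulose the counts of called genes, and of genes at least 2-fold higher or lower, stayed within 1.5 times of those reported under all 22 alternatives. Leaving out single libraries gave 2164 to 2393 genes higher, 2570 to 2853 lower, 359 to 390 at least 2-fold higher, 501 to 515 at least 2-fold lower, and a median log2 fold change of -0.03208 to -0.01071. The median of -0.01918 became 0.03313 with median-of-ratios scaling and 0.03761 with TPM. A pseudocount of 5 FPKM gave 9 higher runs of tags, against 15 as reported, and 5 lower, against 16, a setting chosen, like all for the runs, after seeing the data. It also gave 815 genes at least 2-fold lower on glucose, against 1342, and 903, against 1425, with a difference between carbon sources of at least 2-fold towards cellulose. Median-of-ratios scaling gave 2977 genes higher and 2916 lower on glucose. In these cases the cause was not tested.

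amy13A, not called on cellulose, ranged from -0.1467 to 0.0975 without single libraries and changed sign to 0.01333 (median-of-ratios), 0.01823 (TPM), 0.04122 (array weights), 0.0975 (without gClrBID cellulose replicate 1) and 0.02017 (without M12 cellulose replicate 1). brlA, not called on glucose, ranged from -0.08592 to 0.2027 without single libraries and changed sign to -0.05208 and -0.01022 without gClrBID glucose replicates 2 and 3 and to -0.08592 without M12 glucose replicate 2, and its difference between carbon sources was lost under 13 of 22 alternatives. That of cel61A became -0.8825 with voom weights on the fragments and was lost with a pseudocount of 0.1 (adjusted p = 0.6945). By summed FPKM the cellulase genes held 1.53% in gClrBID and 0.146% in M12. With the replicate block 2351 genes were higher and 2808 lower on cellulose, and of the named genes the block changed the call of the brlA difference alone (0.5129, adjusted p = 0.05466).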
